A study of Mus musculus with 4 samples.

Results

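The genes described here encode parts of the motile cilium other than its dynein motors: proteins of the radial spokes, the central pair and the wall of the microtubule doublets, and further proteins of the axoneme or of the cells that carry it. They were taken by name from a list of 48 symbols, which was drawn up with earlier results of these data known. The table of 22556 genes held 45 of them. Rsph10b, Pcdp1 and Pifo had no row under these symbols. By place, 7 were assigned to the radial spoke, 8 to the central pair, 10 to the doublet lumen, 6 to the doublet surface and 14 to other places. The RNA came from the whole lungs of E16.5 mouse embryos, labelled C57BL/6, whereas the methods of the study describe mixed backgrounds. The 2 Control libraries came from Shh-Cre; Stk11F/+ embryos, and the 2 Shh-Stk11 libraries from Shh-Cre; Stk11F/F embryos. All 4 carried the Cre driver and at least 1 floxed allele of Stk11, the gene of a serine/threonine kinase and tumor suppressor. Shh-Cre recombines in the endodermal lining of the lung, and the mesenchyme, vessels and blood cells in the same RNA kept the gene. The question of the comparison was how the loss of epithelial Stk11 changes gene expression while ciliated cells form.

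Motile cilia line the multiciliated cells of the airways and beat to move mucus. Their core, the axoneme, is a ring of microtubule doublets around a central pair of single microtubules. Radial spokes reach from the doublets to the central pair and pass signals to the dynein arms that bend the cilium, while tektins and other proteins inside the doublets make the wall stable. FOXJ1 is the transcription factor that turns on motile cilium genes, together with factors of the RFX family, which bind the promoter motif called the X-box.

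The axoneme genes were lower as a list in both Shh-Stk11 libraries. Their FPKM values (read numbers divided by transcript length and library depth) summed to 410.5 and 456.4 in the Control libraries and to 148.4 and 147.9 in the Shh-Stk11 libraries, so that the Shh-Stk11 mean was 34.2% of the Control mean. Testing required an average of 0.5 FPKM or more across all 4 libraries, which 40 genes reached. Of these 40, 26 fell in limma with a Benjamini-Hochberg adjusted p under 0.05 and 0 rose, where 1.29% of all 13770 tested genes fell and 0.980% rose. At an unadjusted p under 0.05 in limma, 35 of the 40 were lower, where 7.18% of all tested genes were. The log2 fold change was below 0 for all 40, as for 58.3% of all tested genes. Its median was -1.46 (from -2.02 to -0.20), and over all tested genes it was -0.05. A change of -1 or below was reached by 28 of the 40 and by 2.58% of all tested genes. The 26 genes made up 65.0% of the tested axoneme genes and 14.6% of the 178 genes that fell.

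The number called depended on the libraries, genes and terms of the fit. With the replicate number as a block in the fit, the number called lower was 3 of the 40. It was 4 without Control 1, 4 without Control 2, 18 without Shh-Stk11 1 and 19 without Shh-Stk11 2, and 0 without the filter on low values, with the median between -1.56 and -1.40. Over the alternatives of the fit, without the crossed block that was chosen after seeing the data, the calls of Lrrc23, Fam183b and Dynlrb2 were each lost in 1 of 14, that without a filter. Those of Mlf1 (10 of 14), Wdr16 and Iqca (10 of 13 each), Rsph9 (8 of 14), Ttc18 (8 of 13) and Ccdc108 (7 of 13) were lost in most, and those of the other 20 genes were kept in 7 or more. P-values measure the spread between these libraries. They rest on limma's sharing of variance across genes, since with 2 libraries on each side the smallest two-sided p of an exact permutation test is 0.333.

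**Figure D1:**
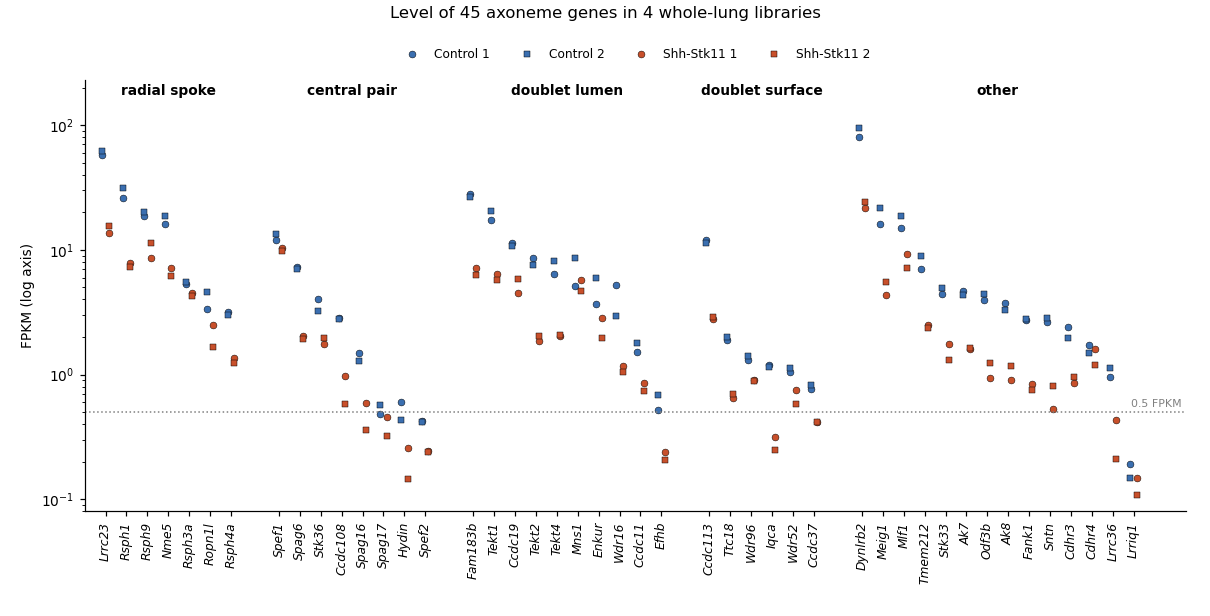
FPKM on a log axis of the 45 axoneme genes in each of the 4 libraries, grouped by place and ordered by Control mean; the dotted line marks 0.5 FPKM. Both Shh-Stk11 points lie below both Control points for 43 genes, and overlap for Mns1 and Cdhr4.

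The separation of the libraries was nearly complete. In 38 of the 40 tested genes both Shh-Stk11 values were below both Control values, as in 27.6% of all tested genes. The reverse order, found in 19.2% of all tested genes, was held by 0 of the 40. With the 5 genes under the filter, 43 of 45 were separated, and Mns1 and Cdhr4 overlapped. The replicates differed by a median absolute log2 difference of 0.19 in Control and 0.18 in Shh-Stk11 over these genes, close to the 0.18 and 0.16 of all tested genes. Relative to the Control mean, 20 genes kept at most 33.3% of their level, 19 kept between 33.3% and 66.7%, and 6 kept more. The median was 35.8% and the range 24.0% to 86.9%. In whole-lung RNA, fewer ciliated cells and less RNA per ciliated cell cannot be told apart.

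Facts of the whole libraries bear on these counts. The depth estimated from steps in the low values was 30.8 M to 38.0 M reads, which gave the axoneme genes a median of 297 estimated reads in Control and 91.0 in Shh-Stk11. Stk11 itself stood at 44.0 and 45.5 FPKM in Control and at 29.5 and 26.0 in Shh-Stk11 (adjusted p = 0.0499, limma), a call lost in 12 of 14 alternatives (adjusted p up to 0.26). Shh-Stk11 2 had the Y-linked gene Ddx3y at 23.5 FPKM, against at most 0.0285 FPKM in the other libraries, and Xist at 0.239 FPKM. Without this library, 19 axoneme genes fell with a median log2 fold change of -1.40. Of 12 epithelial markers, 12 were detected and 0 were called in either direction (limma; 4 were higher and 0 lower at an unadjusted p under 0.05). Their sum was 1131 and 1188 FPKM in Control and 1252 and 1420 in Shh-Stk11. The axoneme sum was 36.3% and 38.4% of this epithelial sum in Control and 11.9% and 10.4% in Shh-Stk11. Called lower were also 2 of 6 club cell markers, Upk3a and Scgb3a2, and 1 of 8 red blood markers, Hba-x. Among the other club markers, Scgb1a1 went the other way, at 221 and 102 FPKM in Control and 312 and 471 in Shh-Stk11 (adjusted p = 0.144, limma). The club list summed to 975 and 947 FPKM in Control and to 731 and 811 in Shh-Stk11, and the red blood list to 5595 and 5810 against 3745 and 4107. The distal list summed to 19582 and 17477 FPKM against 9581 and 14263, most of it Sftpc, while Sftpd had 76.0 and 33.6 FPKM against 143 and 301 (adjusted p = 0.0853, limma). No marker was called among 8 distal epithelial, 12 mesenchymal, 10 endothelial, 6 immune and 5 heart muscle genes tested in limma, of which 1, 5, 4, 0 and 0 were lower and 2, 0, 0, 1 and 0 higher at an unadjusted p under 0.05. The part of these cell types in the result was not tested.

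**Figure D2:**
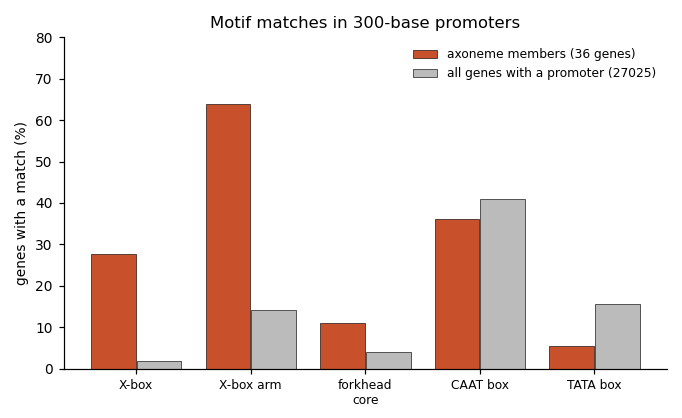
Share of genes (%) with at least 1 match to each motif in the promoter, for the 36 axoneme genes with a RefSeq promoter and for all 27025 genes with one. The X-box is found in 27.8% of axoneme promoters and 1.75% of all.

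The promoters of these genes were searched because RFX factors and FOXJ1 act on cilium genes. RefSeq promoters (GRCm38.p6, 250 bases before to 50 after each start) were given for 36 of the 45 genes. An X-box, written as a pair of arms facing each other with 0 to 3 bases between them, was matched on either strand in 10 of 36, that is 27.8%, against 1.75% of 27025 genes. One of its arms alone, GTTGCC on either strand, was matched in 23 of 36, or 63.9%, against 14.1%. A GTTGCC can lie within an X-box, so these shares are not independent of each other. Of the 10 X-box holders, 9 also had GTTGCC, which in Iqca lay outside the X-box. The other 14 of the 23 had no X-box. The forkhead core TGTTTAC was in 11.1% (Mlf1, Ak7, Sntn and Wdr96) against 4.05% of all genes. Of the letters searched for contrast, CCAAT was in 36.1% against 41.1% and TATAAA in 5.56% against 15.7%. Each match describes letters in the reference sequence, not a bound site.

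Of the 10, Hydin, Lrriq1 and Spef2 were under the filter. The 7 tested genes with an X-box in this window had a median log2 fold change of -1.74, and 5 fell. The 25 tested genes with a promoter but no X-box had a median of -1.41, and 15 fell. The windows of the 7 are shown because they pair a motif with a measured change; capitals mark the X-box, and each is read 5′ to 3′ on the strand of the gene. The X-box began 51 bases before the start of Dynlrb2 (chr8:116504956-116504985, plus strand) and 164 before that of Lrrc23 (chr6:124779870-124779899, minus strand). In Tekt2 (chr4:126325696-126325725, minus strand) it began 29 bases before the nearest annotated start and 71 before another. The window of a further Tekt2 start held no X-box. The X-box began 48 bases before the start of Iqca (chr1:90153462-90153491, minus strand). That of Ccdc19 (chr1:172521103-172521132, plus strand), the last of the 5 that fell, began 19 bases before the start. The 2 that did not pass the threshold were Spag16 (chr1:69826859-69826888, plus strand), with the motif 103 bases before the start, and Wdr52 (chr16:44394764-44394793, plus strand), with 27.
Dynlrb2: cctgcctgGTTGCCTAGCAACgggggaagc
Lrrc23: ttggcctcGTAACCTGGCAACtactgagct
Tekt2: agggggcgGTTGCTCGGCAACcagagccgc
Iqca: agttcctGTTGCTAGGGGCCACctgaagac
Ccdc19: gttcttggGTTGCTATGGTAACgcgtcagc
Spag16: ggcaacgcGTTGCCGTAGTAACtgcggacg
Wdr52: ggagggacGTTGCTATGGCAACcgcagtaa

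A promoter with only the single arm is shown for Fam183b, whose fall was among the steepest of the list. Its 250 bases before the start (chr11:58801961-58802210, minus strand, GRCm38.p6) hold GTTGCC in 2 places, in capitals.
Fam183b: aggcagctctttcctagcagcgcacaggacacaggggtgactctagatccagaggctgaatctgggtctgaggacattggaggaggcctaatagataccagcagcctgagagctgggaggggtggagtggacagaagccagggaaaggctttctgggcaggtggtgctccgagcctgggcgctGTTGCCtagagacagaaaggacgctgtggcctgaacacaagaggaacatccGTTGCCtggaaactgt

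Of the radial spoke genes, 5 of 7 fell, with a median log2 fold change of -1.19 over the 7 and a summed level at 33.8% of Control. Lrrc23, a leucine-rich repeat protein of the spoke and the holder of an X-box shown above, had 57.2 and 62.1 FPKM in Control and 13.7 and 15.5 in Shh-Stk11. The groups stood far apart, 4.07-fold, with a log2 fold change of -2.02 ± 0.13 (SE, n = 2 per group; adjusted p = 0.00329, limma). Rsph1, a protein of the spoke head, had 26.0 and 31.1 FPKM in Control and 7.83 and 7.26 in Shh-Stk11. Both Shh-Stk11 values were under 8 FPKM, and the log2 fold change was -1.90 ± 0.14 (adjusted p = 0.00329, limma). Nme5, a spoke protein of the nucleoside diphosphate kinase family, stood at 16.0 and 18.6 FPKM against 7.19 and 6.14, which left 38.5% of Control.

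The other spoke head genes fell less. Rsph9 had 18.7 and 20.0 FPKM in Control and 8.55 and 11.3 in Shh-Stk11, a log2 fold change of -0.97 (adjusted p = 0.0398, limma), the smallest of the 26. Rsph4a had 3.18 and 2.98 FPKM against 1.36 and 1.23 (adjusted p = 0.0357, limma). The genes of the spoke head kept between 26.4% (Rsph1) and 51.2% (Rsph9) of their Control RNA level. Ropn1l, a stalk protein that binds A-kinase anchors, had 3.36 and 4.59 FPKM against 2.49 and 1.67. The groups did not overlap, but its log2 fold change of -0.91 did not pass the threshold (adjusted p = 0.145, limma; 95% interval -1.53 to -0.30). Rsph3a, also of the stalk, had 5.30 and 5.54 FPKM against 4.47 and 4.23, or 80.3% of Control (adjusted p = 0.378, limma). Its close copy Rsph3b could share reads with it, so both values are uncertain. Rsph3b had 3.39 and 2.88 FPKM in Control and 1.89 and 2.44 in Shh-Stk11.

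Of the 8 central pair genes, 5 could be tested and 2 fell, and the summed level was 54.9% of Control, the highest share of the 5 places. Spag6, an armadillo-repeat protein of the central pair, had 7.26 and 6.97 FPKM in Control and 2.05 and 1.92 in Shh-Stk11. The Shh-Stk11 mean was 27.9% of the Control mean (log2 fold change -1.79 ± 0.15, adjusted p = 0.00441, limma). The symbol now belongs to a pair of near-identical genes, Spag6 and Spag6l, and the row does not say which. Ccdc108, now Cfap65, had 2.82 and 2.78 FPKM against 0.975 and 0.583 and fell by 1.76 on the log2 scale (adjusted p = 0.0344, limma).

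The other tested central pair genes did not pass the threshold. Spag16, a repeat protein of the central apparatus, had 1.49 and 1.29 FPKM in Control and 0.590 and 0.360 in Shh-Stk11 (adjusted p = 0.0861, limma). Stk36, a kinase needed to build the central pair, had 4.03 and 3.24 FPKM against 1.76 and 1.97 (adjusted p = 0.0741, limma). Their groups did not overlap, and they kept 34.2% and 51.3% of Control. Spef1, which binds microtubules and is needed for the central pair, had 12.1 and 13.4 FPKM in Control and 10.3 and 9.80 in Shh-Stk11. It was the most abundant gene of the group and kept 78.9% (log2 fold change -0.34, 95% interval -0.65 to -0.03, adjusted p = 0.278, limma). More of the summed Shh-Stk11 level of the group came from Spef1 than from the other 7 genes together.

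The genes of 3 large central pair proteins were under the filter of 0.5 FPKM, and their longest transcripts were long, from 7038 bases (Spef2) to 15783 bases (Hydin). Hydin had 0.603 and 0.428 FPKM in Control and 0.260 and 0.147 in Shh-Stk11. Spag17 had 0.483 and 0.570 FPKM against 0.452 and 0.322. Spef2 had 0.423 and 0.420 FPKM against 0.244 and 0.237. All 3 were lower in both Shh-Stk11 libraries, an order held by 27.6% of all tested genes. The share among genes under the filter was not computed, and none of the 3 was tested. Their estimated reads ranged from 51.3 (Spef2) to 357 (Hydin) in a library. With the filter at 0.1 FPKM, where 1.15% of 15501 genes fell, their adjusted p-values in limma were 0.210 for Hydin, 0.598 for Spag17 and 0.370 for Spef2.

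**Figure D3:**
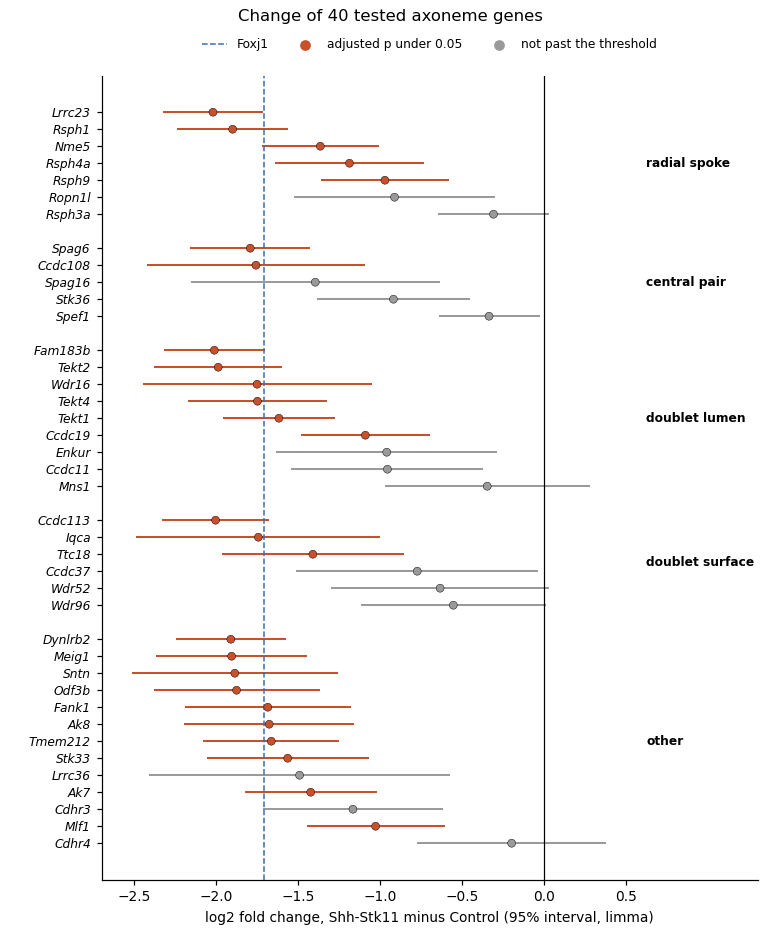
Log2 fold change (Shh-Stk11 minus Control) with its 95% interval from limma for the 40 tested axoneme genes, by place; the dashed line marks Foxj1 at -1.71. All 40 points lie left of 0, and 26 of them (orange) passed the threshold.

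Inside the doublets, 6 of 9 tested genes fell, with a median of -1.62. The tektins, which form filaments within the doublet wall, moved together. Tekt1 had 17.4 and 20.4 FPKM in Control and 6.40 and 5.77 in Shh-Stk11. Tekt2 had 8.66 and 7.50 FPKM against 1.86 and 2.06. Tekt4 had 6.38 and 8.12 FPKM against 2.05 and 2.09. No tektin overlapped between groups, and their log2 fold changes were -1.62, -1.99 and -1.75 (adjusted p = 0.00498, 0.00429 and 0.00766, limma). Fam183b, a small protein of the lumen whose promoter is shown above, was the most abundant of the group. It had 27.9 and 26.6 FPKM in Control and 7.09 and 6.28 in Shh-Stk11 (log2 fold change -2.01 ± 0.13, adjusted p = 0.00329, limma).

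Other genes of the doublet lumen varied more. Ccdc19, now Cfap45, had 11.3 and 10.7 FPKM in Control and 4.49 and 5.79 in Shh-Stk11 (adjusted p = 0.0294, limma). Wdr16, now Cfap52, had 5.25 and 2.97 FPKM against 1.17 and 1.04 (adjusted p = 0.0393, limma). The Control libraries of Wdr16 differed from each other, yet both were above both Shh-Stk11 libraries. Ccdc11, now Cfap53, had 1.51 and 1.79 FPKM against 0.860 and 0.743, and did not pass the threshold (adjusted p = 0.116, limma). Enkur, a calmodulin-binding protein, had 3.70 and 5.96 FPKM against 2.84 and 1.97 (adjusted p = 0.163, limma). Both were separated between groups, near 50% of Control (48.5% and 49.8%). Efhb, under the filter, had 0.524 and 0.683 FPKM against 0.237 and 0.208 (adjusted p = 0.125 with the filter at 0.1 FPKM, limma). Mns1 had 5.11 and 8.67 FPKM in Control and 5.76 and 4.71 in Shh-Stk11. Its groups overlapped, and the log2 fold change of -0.35 (adjusted p = 0.587, limma) became 0.027 without Control 2.

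On the doublet surface, 3 of 6 genes fell, with a median of -1.09. Ccdc113, a coiled-coil protein near the base of the spokes, had 12.0 and 11.4 FPKM in Control and 2.80 and 2.88 in Shh-Stk11 and kept 24.3% of Control (adjusted p = 0.00329, limma). Iqca had 1.19 and 1.16 FPKM against 0.313 and 0.250. At 24.0% of Control, Iqca kept the least of the 45, although its adjusted p of 0.0471 (limma) was the highest among the 26. Ttc18, now Cfap70, which is tied to the outer dynein arm, had 1.89 and 2.0 FPKM against 0.644 and 0.694 (adjusted p = 0.0385, limma). The pair that tethers an inner dynein arm had the smallest log2 fold changes of the 6 (-0.56 and -0.64). A difference from the other genes was not tested. Wdr96, now Cfap43, had 1.32 and 1.40 FPKM against 0.908 and 0.879. Its partner Wdr52, now Cfap44, had 1.04 and 1.14 FPKM against 0.756 and 0.584. Neither passed the threshold (adjusted p = 0.337 and 0.351, limma; 95% intervals -1.12 to 0.01 and -1.30 to 0.03), and they kept 65.7% and 61.5% of Control. Ccdc37, now Cfap100, had 0.760 and 0.818 FPKM against 0.418 and 0.420 (adjusted p = 0.301, limma).

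**Figure D4:**
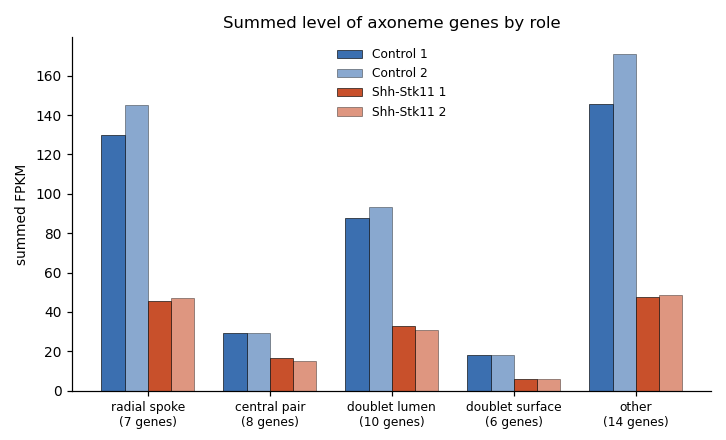
Summed FPKM of the axoneme genes in each library by place; bars start at 0 and each is 1 library. Shh-Stk11 sums are 30.4% to 35.0% of Control in 4 places and 54.9% in the central pair.

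Of the 14 other genes, 10 of the 13 tested fell, with a median of -1.67. Dynlrb2, a roadblock light chain of cytoplasmic rather than axonemal dynein, was the most abundant of the 45 genes. It had 80.1 and 94.5 FPKM in Control and 21.8 and 24.4 in Shh-Stk11, a 3.78-fold lower mean (log2 fold change -1.91 ± 0.14, adjusted p = 0.00329, limma). Meig1, known from sperm formation, had 16.2 and 21.6 FPKM against 4.35 and 5.55 (log2 fold change -1.91, adjusted p = 0.00766, limma). Sntn, the sentan protein of the ciliary tip, had 2.62 and 2.82 FPKM against 0.533 and 0.815. These 3 kept 24.8% to 26.4% of Control. Odf3b, of the outer dense fiber family, had 3.97 and 4.44 FPKM against 0.933 and 1.23. Tmem212 had 7.0 and 8.88 FPKM against 2.48 and 2.36. Odf3b kept 25.7% and Tmem212 30.5% of Control (adjusted p = 0.0116 and 0.00863, limma).

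The adenylate kinases and Stk33 fell by similar amounts. Ak7, an adenylate kinase that balances ATP, ADP and AMP, had 4.65 and 4.38 FPKM in Control and 1.61 and 1.62 in Shh-Stk11. Ak8, of the same family, had 3.73 and 3.30 FPKM against 0.903 and 1.17. Stk33, a serine/threonine kinase, had 4.43 and 4.96 FPKM against 1.76 and 1.31. They kept 35.8%, 29.5% and 32.7% of Control (adjusted p = 0.0139, 0.0186 and 0.0203, limma). Fank1, with ankyrin repeats, had 2.75 and 2.81 FPKM against 0.843 and 0.748 (adjusted p = 0.0164, limma). Mlf1 had 15.0 and 18.6 FPKM against 9.19 and 7.21. It kept 48.8% of Control, the most among the called genes of this group (adjusted p = 0.0408, limma).

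The cadherin-related genes Cdhr3 and Cdhr4 had overlapping 95% intervals in limma (-1.71 to -0.62 and -0.77 to 0.38). The difference between them was not tested. Cdhr3, a surface protein of ciliated cells and receptor of rhinovirus C, had 2.39 and 1.97 FPKM in Control and 0.860 and 0.963 in Shh-Stk11, short of the threshold (log2 fold change -1.17, adjusted p = 0.0600, limma). Cdhr4 had 1.73 and 1.5 FPKM against 1.61 and 1.20. Its groups overlapped, and at 86.9% it kept the most of the 45 genes (adjusted p = 0.743, limma). Lrrc36 had 0.951 and 1.13 FPKM against 0.430 and 0.208, with a wide 95% interval of -2.41 to -0.58 (adjusted p = 0.116, limma). Lrriq1 was the lowest of all, at 0.191 and 0.149 FPKM against 0.148 and 0.108 (adjusted p = 0.780 with the filter at 0.1 FPKM, limma).

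All 14 tested genes short of the threshold had a log2 fold change below 0, and 9 had a 95% interval wholly below 0, from limma without adjustment. Their median Control mean was 1.92 FPKM, and that of the 26 was 7.59 FPKM. Over the 40 genes, the log2 fold change and the Control level had a Spearman correlation of -0.41, and over the 39 with an annotated length, the fold change and the longest transcript one of 0.47. All these points come from the same 4 libraries, and the Control level enters both sides of the first.

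Genes that kept over 66.7% of Control mostly lay over another gene. Reads on overlapping exons can be counted for either gene where strand is not used. In GENCODE M21, 13 of the 44 genes that could be searched shared exon sequence with another gene, 12 of them on the opposite strand. Among the 6 that kept the most were 5 of these 13: Rsph3a, Spag17, Spef1, Mns1 and Cdhr4. Tested genes with an overlap numbered 11, of which 5 fell, with a median log2 fold change of -0.78. Tested genes without one numbered 28, of which 20 fell, with a median of -1.56 and a range of -2.02 to -0.64. The neighbours named next were chosen after their values were seen. Cenpb, which overlaps Spef1 on the same strand, had 65.4 and 67.2 FPKM in Control and 60.4 and 59.9 in Shh-Stk11. Wdr3, which overlaps Spag17, had 13.5 and 14.7 FPKM against 14.6 and 13.5. Tex9, which overlaps Mns1, had 2.34 and 3.70 FPKM against 3.60 and 3.34. The part of the overlaps in the small changes was not tested.

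The fall of Foxj1 lay within the range of the axoneme genes. Foxj1 had 16.1 and 15.4 FPKM in Control and 4.76 and 4.71 in Shh-Stk11 (log2 fold change -1.71 ± 0.13, adjusted p = 0.00329, limma). Of the 40 tested genes, 14 had a lower log2 fold change than Foxj1 and 26 a higher one. The median ratio of an axoneme gene to Foxj1 was 0.246 and 0.285 in the Control libraries and 0.339 and 0.277 in the Shh-Stk11 libraries, which overlap in range. Mcidas, an upstream regulator of multiciliated cells listed as Gm6320, had 3.65 and 4.30 FPKM against 2.0 and 1.34 (adjusted p = 0.0586, limma). Rfx2 had 2.38 and 2.16 FPKM against 1.85 and 1.58, and Rfx3 had 2.40 and 2.15 against 4.13 and 3.35. Neither RFX gene passed the threshold, and the higher values of Rfx3 in Shh-Stk11 were opposite to those of the axoneme genes (adjusted p = 0.134, limma).

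**Figure D5:**
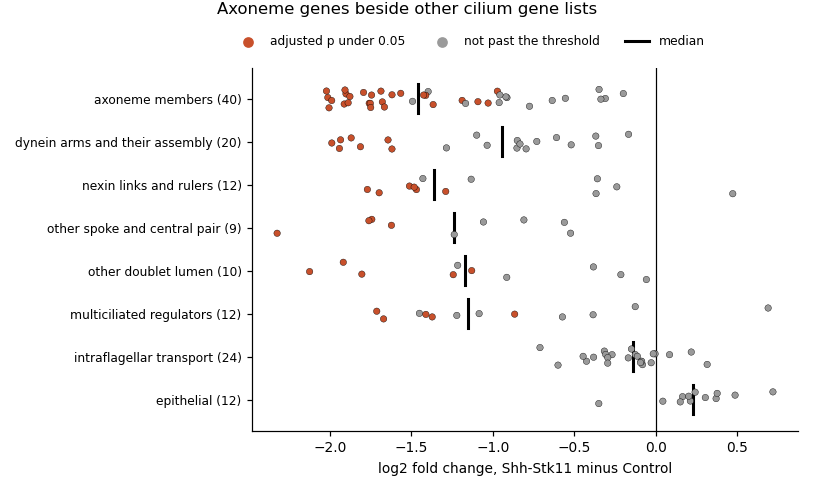
Log2 fold change of each tested gene (points, moved at random along the vertical axis) and median (bar) for the axoneme genes, 6 other cilium lists and epithelial markers; numbers in brackets are genes tested. Medians range from -1.46 for the axoneme genes to 0.23 for the epithelial markers.

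Genes of other cilium structures also fell. Among genes of the dynein arms and their assembly, 7 of 20 tested fell and 0 rose, with a median of -0.94. Ccdc151, Dnali1 and Lrrc50 changed the most there (-1.99, -1.94 and -1.93). Of the nexin links and molecular rulers between doublets, 6 of 12 fell and 0 rose, with a median of -1.36. Further spoke and central pair genes outside the list gave 4 of 9, a median of -1.24 and the steepest single fall of these lists, Rtdr1 (now Rsph14), at -2.32 (adjusted p = 0.0129, limma). It had 2.29 and 2.75 FPKM in Control and 0.361 and 0.490 in Shh-Stk11. Further genes of the doublet lumen gave 5 of 10 and a median of -1.17, led by Spag8 at -2.12. Of the regulators of multiciliated cells, 5 of 12 fell, with a median of -1.15.

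Intraflagellar transport genes, which serve both motile and primary cilia, gave other values. Of 24 tested, 0 were called in either direction by limma, with 5 lower and 0 higher at an unadjusted p under 0.05. Their median was -0.14. The 3 with the lowest values were Rabl5 at -0.71, Traf3ip1 at -0.60 and Dync2li1 at -0.45, all above the median of the axoneme genes. In the promoters of this list an X-box was matched in 1 of 20 and GTTGCC in 9 of 20. The dynein list had an X-box in 4 of 19 and GTTGCC in 7 of 19, the further genes of the doublet lumen in 2 and 6 of 10, and the regulators in 1 and 7 of 10. The further spoke and central pair genes had them in 2 and 3 of 11, the nexin links and rulers in 1 and 4 of 9, and the 8 epithelial markers with a promoter in 0. Of the other marker lists, GTTGCC was in 2 of 6 distal, 1 of 4 red blood and 1 of 6 heart muscle promoters, and neither motif was in those of the club, mesenchymal, endothelial and immune lists.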

How the data were processed

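Total RNA of whole E16.5 lungs was sequenced as single-end 50-base reads, 2 libraries per genotype, which the methods of the study describe as independent biological replicates. The authors deposited FPKM values per gene, reads scaled to transcript length and mapped reads. The submitters' processing notes name TopHat2 2.0.13, Cufflinks 2.2.1, GRCm38 and mm9, without their roles. Strand use in counting is not given in the sources used here.

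The list of genes, the comparison lists and the motifs were chosen with earlier results of these data known. Every listed gene could be named, by role. Of the comparison lists, the 3 genes that changed most toward the side of the list's median, those past the threshold the other way, Foxj1, Mcidas, Rfx2, Rfx3 and Stk11 could be named. The other genes named were chosen after their values were seen. These were Scgb1a1, Sftpc, Sftpd, Ddx3y, Xist, Rsph3b, Cenpb, Wdr3, Tex9, Cdc25b, Itprip, Zxdc, 4933439K11Rik and the rows now Pifo and Cfap221.

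Values were fitted as log2(FPKM + 0.1) in R 4.3.3 with limma 3.58.1 (lmFit, eBayes with trend; 4.48 prior and 2 residual degrees of freedom). Genotype was the only term. Genes averaging 0.5 FPKM or more were tested, two-sided, with Benjamini-Hochberg adjustment over all 13770 and a threshold of 0.05. The alternatives were pseudocounts of 1 and 0.01, 3 other filters, quantile and median ratio scaling, eBayes without trend, a replicate block, removal of length and GC trends, and each library left out. A crossed replicate block was added after seeing the data.

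The low values carried a trace of read numbers. Of 1806 genes under 0.3 FPKM, 75.1% held whole multiples (within 0.05) of a smallest step, too few for a count test. The steps gave the depth and the read estimates, with 200 bases taken off each transcript length. These estimates cover counting error only.

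Symbols were matched to GENCODE M21 and RefSeq (GRCm38.p6) for current names, transcript lengths, overlaps and promoters. Only exons of annotated genes were compared.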

Additional observations from a re-analysis of the deposited data

How the results depend on the processing

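All 40 tested axoneme genes had a log2 fold change below 0 under every alternative that tested them, except Mns1 without Control replicate 2 (-0.72 to 0.027 with each library left out), and 0 were called higher in each (limma). The 575 gene-level repeats include the crossed block, which gave 4 of the 5 gains below. Of these repeats, 440 stayed on the same side of the threshold, called or not called, 129 lost the call, 5 gained one and 1 changed sign. Under 30 estimated reads in some library were found for 6 of 44 genes (Sntn, Iqca, Odf3b, Efhb, Lrrc36 and Lrriq1), of which Sntn, Iqca and Odf3b were called.

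The number called lower was 26, among 178 of all genes, with 135 of all genes called higher. Without a filter it was 0 of 45 (lowest adjusted p 0.0889 in limma, with 38 at an unadjusted p under 0.05), with 1 of all genes lower and 0 higher. That alternative tests 22556 genes in place of 13770, and limma's sharing of variance is then estimated over all of them. At a mean of at least 5 FPKM it was 13 of the 15 that remained, with 90 of all genes lower. Leaving out each library gave 4 to 19, with 23 to 127 of all genes lower and 15 to 64 higher, from fits with 1 residual degree of freedom in which the lone library was taken to vary like the other group. Removing length and GC trends left 18, with 104 of all genes lower and 87 higher. The median log2 fold change of the list, -1.46, was -1.02 with a pseudocount of 1 and -1.67 at a mean of at least 5 FPKM, and lay between -1.59 and -1.39 otherwise. The larger pseudocount shrinks low genes by construction, and the higher filter keeps fewer genes.

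The replicate numbers are not said to mark a shared litter or day, and same-numbered libraries deviated with a correlation of -0.11. With the number as a replicate block, 3 of the 40 were called lower, with 7 of all genes lower and 6 higher. The crossed pairing, chosen after seeing the data, gave 30, with 315 of all genes lower and 360 higher.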

Other observations

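Rows of the table under other symbols carry the names of absent listed genes in RefSeq, and were looked up after the values of the list were seen. The row 1700027A23Rik, now Pifo, had 14.4 and 17.6 FPKM in Control and 4.67 and 4.29 in Shh-Stk11 (log2 fold change -1.81, adjusted p = 0.00441, limma). The row Gm101, now Cfap221 and formerly Pcdp1, was under the filter, at 0.615 and 0.659 FPKM against 0.140 and 0.170. Both were lower in both Shh-Stk11 libraries and stand outside every count above.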
